A study of Rattus norvegicus with 6 samples.

Results

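Dual-specificity MAP kinase phosphatases were examined in the colon of 3 rats of the S.LEW congenic strain, named C1 to C3, and of 3 rats of the S strain, named S1 to S3. The family was taken as 10 rat genes, Dusp1, Dusp2, Dusp4, Dusp5, Dusp6, Dusp7, Dusp8, Dusp10, Dusp14 and Dusp16. A gene was included through the RefSeq accession that the array gives for each probe. By that rule 9 of the 10 genes had a probe, 1 probe each, among the 15168 genes that could be named on the array, and Dusp7 had none. S is the Dahl salt-sensitive rat (SS/Jr), an inbred hypertensive strain. The S.LEW(10)x12x2x3x5 congenic strain carries a segment of chromosome 10 of the Lewis rat on the S background. All 6 rats were male and were 30 weeks old when the colon was taken. From 6 weeks of age each of them had been given 2 weekly injections of azoxymethane (AOM), a carcinogen of the colon, at 15 mg/kg, and all were fed a low salt diet with 0.3% NaCl. Rats without AOM were not part of the arrays, so every value below is from carcinogen-treated colon.

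MAP kinases (ERK, JNK and p38) are switched on when a threonine and a tyrosine in their activation loop are phosphorylated, and dual-specificity phosphatases switch them off by removing both phosphates. Dusp1, Dusp2, Dusp4 and Dusp5 encode nuclear phosphatases whose genes are induced within a short time of MAP kinase signaling. Dusp6 and Dusp7 encode cytoplasmic phosphatases that act on ERK, while Dusp8, Dusp10 and Dusp16 encode enzymes that act mainly on JNK and p38. Dusp14 encodes a small phosphatase without the kinase-docking domain of the others. Because ERK signaling induces several of these genes, their RNA is often read as negative feedback on the pathway in colon epithelium and in lymphocytes.

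Dusp5 and Dusp2 were the members with an unadjusted p under 0.05 between the strains, and the DNA before their start sites is shown here because those windows differ in their motifs. The sequences are from RefSeq (GRCr8 assembly) and cover the 250 bases before the annotated transcription start, read 5′ to 3′ on the strand of the gene. They lie at chr1:262543524-262543773 on the plus strand for Dusp5 and at chr3:135009386-135009635 on the plus strand for Dusp2. Capitals mark CArG boxes, the binding motif of serum response factor (a run of A and T bases between CC and GG), and the core of the cyclic AMP response element, TGACG on either strand, which reads CGTCA where it lies on the minus strand.
Dusp5: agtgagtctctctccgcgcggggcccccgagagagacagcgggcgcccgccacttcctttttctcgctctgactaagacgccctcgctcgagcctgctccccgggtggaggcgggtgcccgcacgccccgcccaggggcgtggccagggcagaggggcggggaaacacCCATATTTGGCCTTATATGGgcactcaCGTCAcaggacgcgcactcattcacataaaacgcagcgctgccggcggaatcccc
Dusp2: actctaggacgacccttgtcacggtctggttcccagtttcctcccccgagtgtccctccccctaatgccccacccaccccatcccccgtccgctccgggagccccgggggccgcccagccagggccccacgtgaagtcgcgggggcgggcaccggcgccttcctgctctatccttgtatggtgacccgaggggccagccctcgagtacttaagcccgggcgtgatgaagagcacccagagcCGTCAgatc
The Dusp5 window held 2 CArG boxes side by side, at -82 to -73 and at -72 to -63 relative to the transcription start, and a TGACG core on the minus strand at -55 to -51. The Dusp2 window held no CArG box, and its TGACG core, on the minus strand, was at -9 to -5. These motifs did not overlap each other. A CArG box was present in 501 of the 33469 windows of the same length in the RefSeq table, 1.5% of them, and in 1 of the 11 windows of the 9 members listed there. At least 2 CArG boxes were found in 7 windows, 0.0209% of all, which belonged to Dusp5, Srf (serum response factor itself), Egr1, Hnrnpd and 3 uncharacterized loci. The TGACG core was far more common, in 18.2% of all windows and in windows of 5 members, among them Dusp1, where it formed a full TGACGTCA element at -124 to -117. The full element was in 1.59% of all windows. Dusp4 had no entry in the promoter table.

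The values are log2 signals of Agilent single-color arrays, 1 array per rat, that the authors quantile-normalized, which puts all arrays on a common distribution. Each array had 42877 spots that are not controls, and no spot was saturated. Of these spots 73.8% to 80.9% stood well above background on the congenic arrays and 83.2% to 87.6% on the S arrays. The median intensity before normalization was 594 in S1 and 445 in S3, against 219 in S2 and 214 to 291 in congenic rats. The part of these array differences in the values below was not tested. The S2 array stood apart from the other S arrays. Over all probes it had a Pearson correlation of 0.967 to 0.976 with the congenic arrays, against 0.900 with S1 and 0.937 with S3, which had 0.980 with each other. The sample labels do not name a slide. C1 and the 3 S rats shared a scan identifier, and C2 and C3 shared another. Each identifier was read here as a slide, so the difference of a member within the first slide is also given where it moved. Strains were compared with limma, with Benjamini-Hochberg adjustment over the 23997 probes of the deposited table. No probe on the array had an adjusted p under 0.05 with all 6 rats, and a two-sided exact permutation test of 3 against 3 rats cannot go below p = 0.10. The labels name separate rats and say nothing more of how they were chosen. The p-values set the strain difference against the spread between rats of a strain, and cover these 6 animals alone. In the paper each cage held 1 S and 1 congenic rat, and the labels do not say which rats shared a cage.

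Dusp5, a nuclear phosphatase that acts on ERK alone and holds it in the nucleus, was lower in the colon of the congenic rats. The congenic rats read 7.75 (C1), 7.81 (C2) and 7.61 (C3) on the log2 scale, against 8.49 in S1, 8.55 in S2 and 8.70 in S3. The strains did not overlap, the highest congenic rat lay 0.68 below the lowest S rat, and S2 sat between the other two S rats. The means were 7.72 ± 0.10 and 8.58 ± 0.11 (SD, n = 3 each), a difference of -0.85 (SE 0.17), or 1.81-fold lower in congenic rats. The adjusted p in limma was 0.221, the lowest among the 9 members, and the exact permutation p was 0.10, the smallest the design allows. The probe was printed in 10 spots on every array, whose log2 signals had an SD of 0.05 to 0.11 within an array. Dusp5 kept its direction and its size whichever rat was left out, with differences from -0.90 to -0.79. It was -0.87 (SE 0.16) without S2, with an adjusted p of 0.0220 in limma, and -0.82 within the first slide, where C1 was the sole congenic rat. Without S2 25.7% of all genes had an adjusted p under 0.05. With another rat left out the adjusted p of Dusp5 in limma was 0.320 to 0.865.

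The genes whose pattern over the 6 rats was nearest to that of Dusp5 were also low in every congenic rat and high in every S rat. They were chosen for this likeness, so it is no separate support for the Dusp5 difference. Nearness was the root mean square distance of mean-centered log2 signals over the 6 arrays, among 12397 genes, for which the median distance to Dusp5 was 0.57. Lxn, which encodes a carboxypeptidase inhibitor, was nearest at 0.08, with 10.24, 10.36 and 10.23 in congenic rats and 10.90, 10.94 and 11.16 in S rats. Inhba, the activin A subunit, followed at a distance of 0.12, with 6.22, 6.41 and 6.34 against 6.99, 7.15 and 7.04. Slc30a3, a zinc transporter, came next at 0.13, with 7.49, 7.74 and 7.63 against 8.30, 8.65 and 8.69. Of the other genes with at least 2 CArG boxes in the window, Egr1 and Srf had a place on the lists below. Values of the rest are not given, and the part of the motif in the Dusp5 difference was not tested. Egr1 and Srf were chosen after their values were seen. Egr1, an immediate early transcription factor, overlapped between the strains, with 8.59, 6.52 and 7.67 in congenic rats and 7.49, 8.44 and 7.03 in S rats. Srf overlapped as well, with 13.26, 13.45 and 13.74 in congenic rats and 12.66, 13.74 and 12.81 in S rats.

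The mean signals of 3 lists of tissue markers also separated the strains without overlap, although not every gene of these lists did. The mean log2 signal of 10 striated muscle markers ranged from 7.14 to 7.55 in congenic rats and read 8.01, 8.96 and 8.76 in the S rats, in order of their number. Of these 10 genes 3 had no overlap between strains, and the same 3 were lower in congenic rats by the cut-offs of the study (Tnnt3, Myh1 and Mybpc1), of which Myh1 and Mybpc1 stood well above background on none of the congenic arrays. Acta1, Actn2 and Ckm were higher on average in congenic rats, by 0.42, 0.21 and 0.15, and Myh2 ranged from 2.71 in S1 to 10.94 in S2. The mean of this list therefore mixes genes of both directions and signals not well above background. These genes were named after their values were seen. The mean of 13 epithelial markers was 13.29 to 13.77 in congenic rats and 12.49 to 12.73 in S rats, all 13 were above background on all 6 arrays, and 9 of them had no overlap. The mean of 6 adipocyte markers was 7.37 to 8.20 in congenic rats and 6.60 to 6.88 in S rats, with no overlap in 4 of them. Among all genes 14.2% had no overlap with congenic rats higher, and 5.01% with congenic rats lower. The part of these 3 lists in the Dusp5 difference was not tested.

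**Figure D1:**
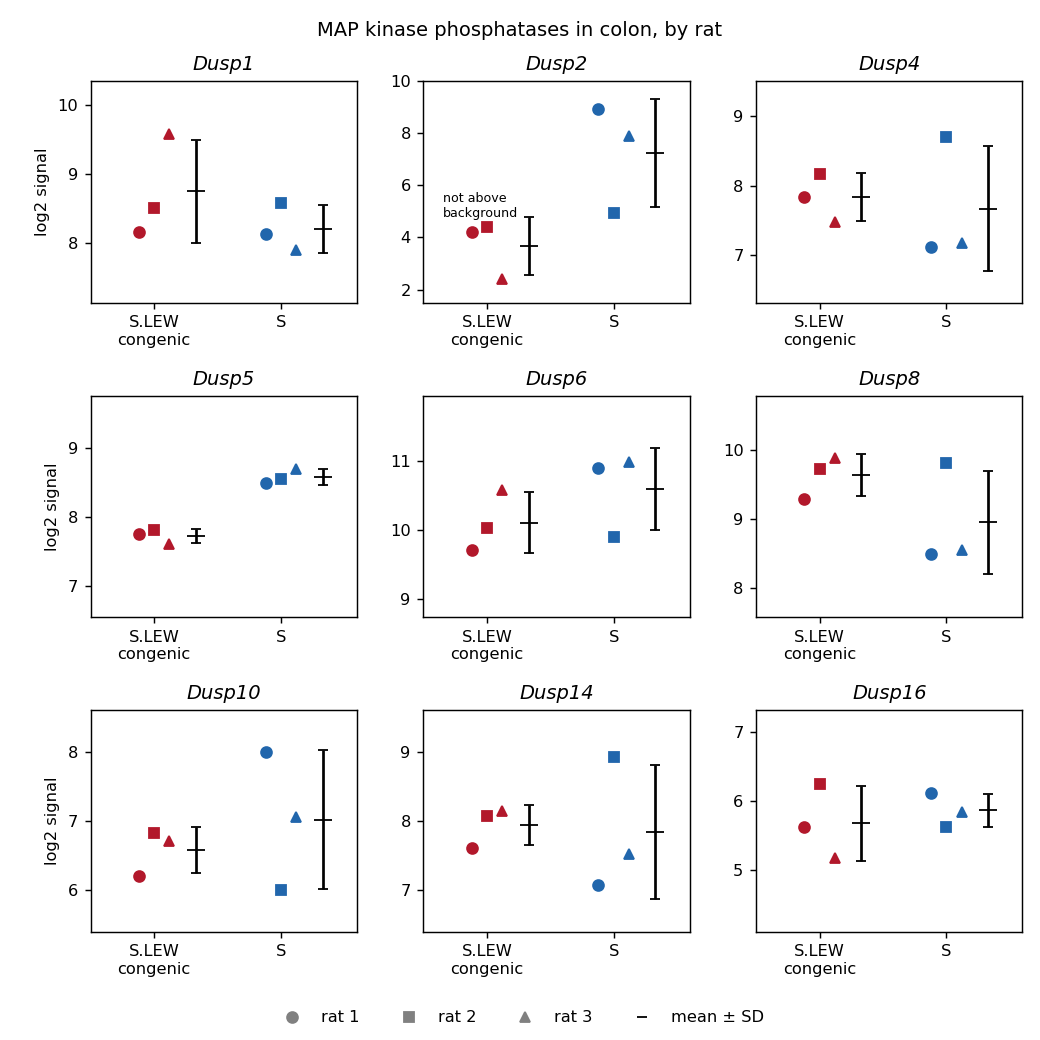
Log2 signal of the 9 measured phosphatases in each rat, S.LEW congenic on the left (red) and S on the right (blue) of each panel, with the symbol giving the rat number and the black bar the mean and SD of 3 rats. Panels share a span of log2 signal except that of Dusp2, and Dusp5 has every congenic rat below every S rat. For Dusp2 the congenic points are not well above background, so the order of C2 and C3 against S2 is not known.

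Dusp2 (PAC1), a nuclear phosphatase first described in activated lymphocytes, had the largest difference between strain means among the members. The probe read 8.92 (S1), 4.94 (S2) and 7.90 (S3) in S rats, on arrays where it was always well above background. It was 4.20 (C1), 4.41 (C2) and 2.40 (C3), and stood well above background on none of the congenic arrays. S1 and S3 were far above the rest. The congenic values are bounds and not levels, and since the lowest signal well above background was 4.50 on the C1 array, 5.62 on C2 and 5.01 on C3, the order of S2 against C2 and C3 is not known. Set against the lowest signal that was well above background on the same arrays, Dusp2 was at least 4.61-fold lower in congenic rats, from an S mean of 7.25 and a congenic bound of 5.05 (measured congenic mean 3.67). The measured difference was -3.58 (SE 1.08), with an adjusted p of 0.317 in limma. The bound rested on S1 and S3. It was 10.3-fold without S2, 2.59-fold without S1 and 3.69-fold without S3, and 2.88-fold with normexp background correction.

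Dusp2 was the single member past the cut-offs of the study, an unadjusted p under 0.05 with at least a 2-fold difference, and it was lower in congenic rats. Among all genes 2.62% were lower and 3.79% were higher by the same cut-offs, or 6.41% in either direction, and 1 of 9 members is near that share. The call was lost without C3 (difference -2.94, SE 1.17) and with the methods' t-test. It was lost as well within the first slide, where the difference of C1 from the 3 S rats was -3.05. Without S2 the difference was -4.73 (SE 0.69), with an adjusted p of 0.0140 in limma. In that set 25.7% of all genes had an adjusted p under 0.05. With another rat left out the adjusted p of Dusp2 in limma was 0.508 to 0.865.

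The genes with the pattern nearest to Dusp2 are known for their roles in lymphocytes. The median distance over all genes was 2.29. Lat2, an adaptor of B cell and mast cell receptors, was nearest at 0.48, with 5.77, 5.86 and 4.53 in congenic rats and 9.88, 5.65 and 8.80 in S rats. Spib, a transcription factor of B cells, was at 0.54, with 9.05, 9.59 and 8.26 against 13.59, 9.01 and 12.85. Cytip, a cytohesin-binding protein of lymphocytes, was at 0.62, with 6.94, 7.15 and 6.63 against 11.79, 7.38 and 11.49. In each of them S1 and S3 were high and S2 was near the congenic rats, which follows from their choice by likeness. Dusp2 was also high in S1 and S3, while its order in S2 against C2 and C3 is not known. The distances used the Dusp2 signals as given, which were not well above background in congenic rats, so they are uncertain. The Lat2 signal of 4.53 in C3 was also below the lowest signal well above background on that array, 5.01.

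The means of the lymphocyte marker lists moved in the same rats. The mean log2 signal of 11 T cell markers was 10.32 in S1 and 10.45 in S3, against 6.80 in S2 and 6.84 to 6.91 in the congenic rats. That of 6 B cell and germinal centre markers was 11.28 and 10.46, against 5.49 in S2 and 5.56 to 6.21 in the congenic rats. By the cut-offs of the study 5 of the 11 T cell genes and 2 of the 6 B cell genes were lower in congenic rats and none was higher, and without S2 these counts were 10 and 5. Among all genes 2.62% were called lower with 6 rats and 8.27% without S2. Lck, the kinase that starts T cell receptor signaling, was 6.11, 6.20 and 5.74 in congenic rats and 11.25, 5.92 and 11.17 in S rats. Ptpn7, a MAP kinase phosphatase of blood cells from outside the dual-specificity family, was 5.50, 6.06 and 6.10 against 11.36, 5.52 and 10.77. Cd8b and Pax5 did not follow the means of their lists. Cd8b was 8.77, 8.98 and 8.39 in congenic rats and 8.22, 10.14 and 9.61 in S rats. Pax5 was 10.26, 10.00 and 9.98 against 10.04, 10.46 and 9.77. Lck, Ptpn7, Cd8b and Pax5 were named after their values were seen. Of 17 listed T cell genes 11 had a value, 8 of them above background on all 6 arrays. Of 13 listed B cell genes 6 had a value, 3 of them above background on all 6 arrays. In RNA from whole tissue fewer cells of a type and less RNA per cell cannot be told apart, and the part of lymphocyte number in the Dusp2 difference was not tested.

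**Figure D2:**
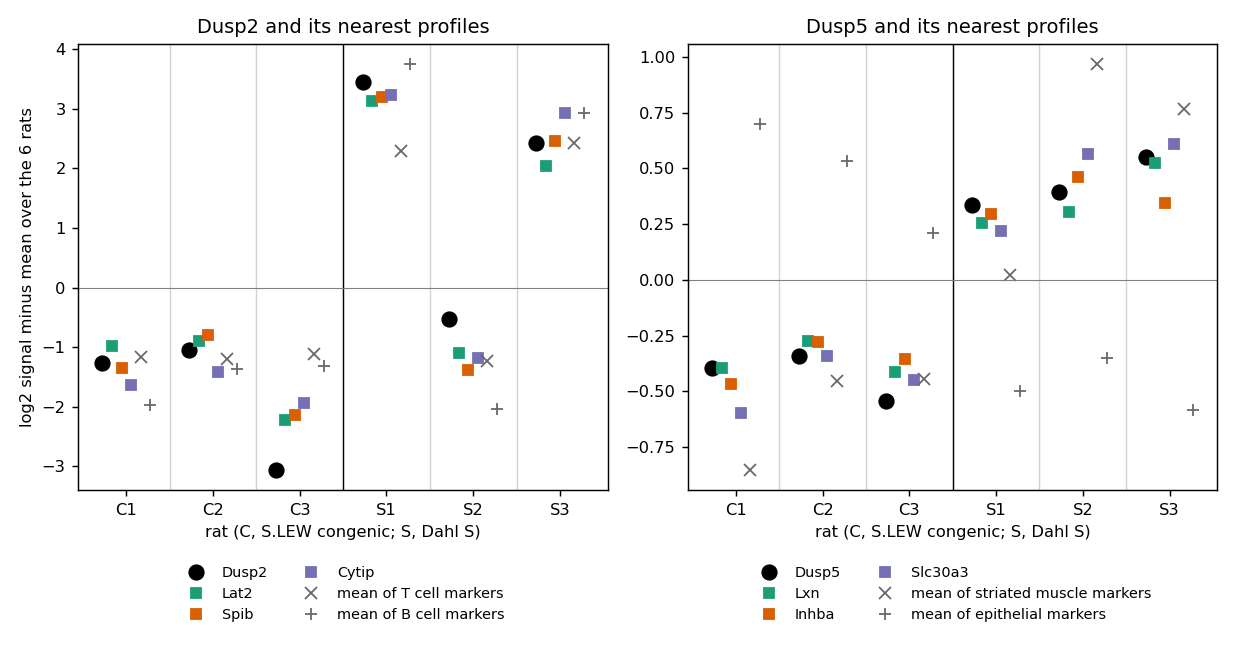
Log2 signal minus its mean over the 6 rats (vertical axis) for Dusp2 on the left and Dusp5 on the right in each rat, with the 3 genes of nearest pattern and the mean of marker lists. Dusp2, its nearest genes and the means of the lymphocyte marker lists are high in S1 and S3 alone. Dusp5 and its nearest genes are high in all 3 S rats. The nearest genes were chosen by their pattern, so their likeness follows from the choice.

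Dusp1 and Dusp4, the other nuclear phosphatases, overlapped between the strains. Dusp1 (MKP-1), which acts on p38 and JNK as well as ERK, was 8.16 (C1), 8.51 (C2) and 9.58 (C3), against 8.13 in S1, 8.59 in S2 and 7.90 in S3. C3 alone lay above the S rats. The means were 8.75 ± 0.74 and 8.21 ± 0.35 (SD, n = 3 each), and the difference of 0.54 (SE 0.40) had an adjusted p of 0.538 in limma and an exact permutation p of 0.40. It was 0.13 without C3, 0.73 without S2 and -0.05 within the first slide. Its size therefore depended on C3. Within the first slide C1 was the sole congenic rat, so slide and rat cannot be told apart there.

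Dusp4 (MKP-2), an ERK-induced phosphatase of ERK and JNK, was 7.83, 8.17 and 7.48 in congenic rats and 7.11, 8.70 and 7.18 in S rats. The congenic rats lay between S2, the highest rat, and S1 and S3, the lowest. The means were 7.83 ± 0.35 and 7.67 ± 0.90 (SD, n = 3 each), a difference of 0.16 (SE 0.47) with an adjusted p of 0.875 in limma. It ranged from -0.11 without S1 to 0.68 without S2, where the adjusted p was 0.0901.

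Dusp6 (MKP-3), the cytoplasmic ERK phosphatase and a widely used readout of ERK activity, was 9.71 (C1), 10.03 (C2) and 10.58 (C3). The S rats had 10.90 (S1), 9.90 (S2) and 10.98 (S3). S1 and S3 were above every congenic rat, while S2 lay between C1 and C2. The means were 10.11 ± 0.44 and 10.59 ± 0.60 (SD, n = 3 each), so that congenic rats were 1.40-fold lower with a difference of -0.49 (SE 0.37), an adjusted p of 0.548 in limma and an exact permutation p of 0.30. Its 9 to 10 usable spots on each array had an SD of 0.04 to 0.06 within an array. The difference was -0.83 without S2 (SE 0.28), with an adjusted p of 0.0852 in limma, and -0.89 within the first slide. Dusp7, the closest relative of Dusp6 in this group, had no probe under its accession and no value is given.

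Among the phosphatases of stress-activated kinases, Dusp8 was higher and Dusp10 and Dusp16 were lower on average in congenic rats, and all of them overlapped with all 6 rats. Dusp8, which acts on JNK and p38, was 9.29 (C1), 9.73 (C2) and 9.88 (C3), against 8.49 in S1, 9.81 in S2 and 8.55 in S3. S1 and S3 lay below every congenic rat, and S2 lay among them. The means were 9.63 ± 0.30 and 8.95 ± 0.75 (SD, n = 3 each), with a difference of 0.68 (SE 0.40), or 1.6-fold, an adjusted p of 0.469 in limma and an exact permutation p of 0.30. Without S2 Dusp8 was 2.16-fold higher in congenic rats, a difference of 1.11 (SE 0.22) with an adjusted p of 0.0256 in limma. In that set 25.7% of all genes had an adjusted p under 0.05. With another rat left out the adjusted p of Dusp8 in limma was 0.601 to 0.868. The Dusp8 difference was 0.34 within the first slide. For smooth muscle markers S1 and S3 were likewise below the other 4 rats. The mean log2 signal of 8 such genes was 15.38 to 15.62 in congenic rats, 15.71 in S2, 13.37 in S1 and 14.36 in S3. All 8 were above background on all 6 arrays, and 1 of them, Smtn, was called higher, or 6 of the 8 without S2. Among all genes 3.79% were called higher with 6 rats and 11.3% without S2. The part of smooth muscle in the Dusp8 difference was not tested.

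Dusp10 (MKP-5), a phosphatase of JNK and p38, was 6.21, 6.83 and 6.71 in congenic rats and 8.00, 6.00 and 7.05 in S rats. S2 was the lowest of the 6 rats and S1 the highest. The means were 6.58 ± 0.33 and 7.02 ± 1.0 (SD, n = 3 each), a difference of -0.43 (SE 0.51) with an adjusted p of 0.685 in limma. It was -0.94 without S2, with an adjusted p of 0.105, 0.06 without S1 and -0.81 within the first slide. Dusp16 (MKP-7), which holds JNK in check, was near the floor of the array, at 5.62, 6.25 and 5.17 in congenic rats and 6.11, 5.63 and 5.84 in S rats. Every S array and C1 and C2 had it well above background, C3 did not, and the rats were fully intermixed. The means were 5.68 ± 0.54 and 5.86 ± 0.24 (SD, n = 3 each), and the difference was -0.18 (SE 0.31), with an adjusted p of 0.784 in limma, and it was 0.07 without C3.

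Dusp14 (MKP-6), the small phosphatase, which is known for restraining T cell receptor signaling, was 7.60, 8.07 and 8.14 in congenic rats and 7.07, 8.93 and 7.52 in S rats. S2 was the highest rat and S1 and S3 were the lowest. The means were 7.94 ± 0.29 and 7.84 ± 0.97 (SD, n = 3 each), a difference of 0.10 (SE 0.49) with an adjusted p of 0.930 in limma. It was 0.64 without S2 and -0.23 within the first slide. Dusp14 and Dusp1 are on chromosome 10, the chromosome of the Lewis segment, with 35 and 758 protein-coding genes between them and Rffl. The paper describes a short segment with Rffl as its only protein-coding gene, which places both Dusp14 and Dusp1 outside it. RefSeq also lists a related gene, Dusp14l1, and whether the probe reads it was not tested.

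**Figure D3:**
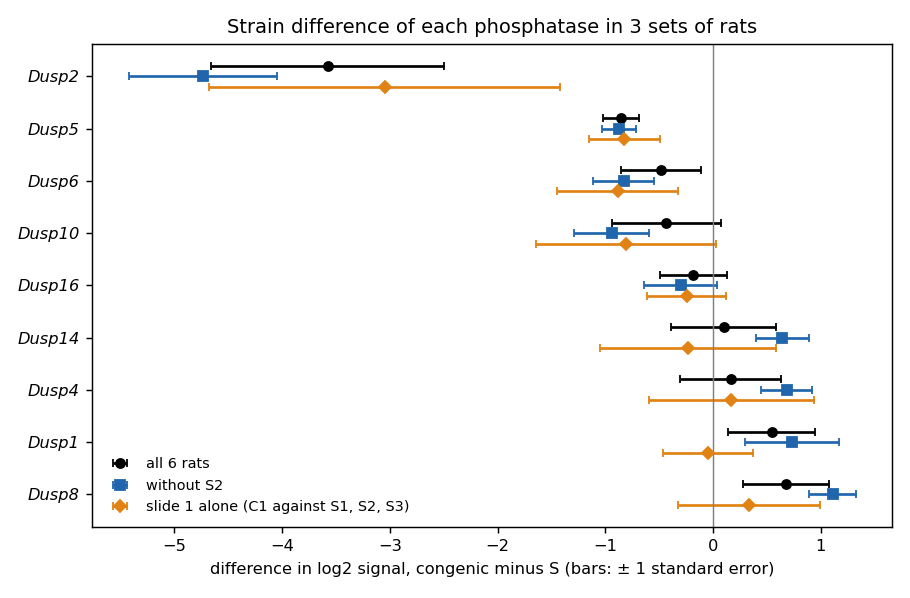
Difference in log2 signal, congenic minus S, of each phosphatase with its standard error, for all 6 rats (black circles), without S2 (blue squares) and within the first slide (orange diamonds, C1 against the 3 S rats). Dusp5 holds its place in all 3 sets, at -0.85, -0.87 and -0.82, and the other members move away from 0 without S2.

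Taking the 9 measured members as a group, 4 were higher and 5 were lower on average in congenic rats, with a median difference of -0.18, against a median of 0.03 over all 12418 named genes. The median was the same with Dusp2 set at its bound. An unadjusted p under 0.05 was reached by 2 of 9 members, Dusp2 and Dusp5, against 14.5% of all genes, and both were lower in congenic rats, a direction that 4.40% of all genes took. Dusp5 was the only member whose strains were shown not to overlap, since the order of S2 against C2 and C3 is not known for Dusp2. Among all genes 19.2% did not overlap by their signals as given, 5.01% in the direction of Dusp5. None of the 9 had an adjusted p under 0.05.

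S2 stood apart from S1 and S3 in most members, as in most genes on the array. In 8 of the 9 members S2 was nearer to the mean of the congenic rats than to the mean of S1 and S3, and Dusp5 was the exception. The same held for 72.7% of all genes, so this is close to what the arrays show as a whole. The SD of the S rats was larger than that of the congenic rats in 7 of 9 members, against 72.1% of all genes. The median SD of the members was 0.75 in S rats and 0.35 in congenic rats, and that of all genes was 0.37 and 0.21. Without S2, 3 of 9 members had an adjusted p under 0.05 in limma, Dusp8 higher and Dusp2 and Dusp5 lower. The share of all genes was then 25.7%, with 14.1% higher and 11.6% lower, and 3 of 9 is near that share. In the same set of rats the strains did not overlap in 8 of 9 members, against 61.4% of all genes.

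Genes of the kinase cascades that these phosphatases act on were read as a list. Of 58 listed genes of the ERK, JNK and p38 cascade, from receptors to MAP kinases and their substrate kinases, 52 had a probe in the table, with a median difference of 0.09. None was higher and 2 were lower by the cut-offs of the study, against 3.79% and 2.62% of all genes. Map4k1, a kinase of blood cells that feeds into JNK, was 7.76, 7.33 and 7.38 in congenic rats and 11.89, 7.61 and 11.17 in S rats, with a difference of -2.73 (SE 1.06). Rasgrp1, the Ras activator of T cells, was 6.24, 6.63 and 5.77 against 8.42, 6.40 and 7.93, with a difference of -1.37 (SE 0.54). Both were high in S1 and S3 alone, as Dusp2 was. These calls were not stable. None of the list was called lower without C1, C3, S1 or S3, with the methods' t-test, without a filter on dim probes or within the first slide, where the median was -0.0039. Without C2, 1 gene was called in each direction. Without S2, 6 genes of the list were called higher and 5 lower, and the median was 0.18.

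A list of ERK feedback regulators, transcription targets and transcription factors of the pathway, such as Elk1 and Srf, held genes of both directions. Of its 32 genes 28 had a probe, 2 were called higher and 2 lower in congenic rats, and the median difference was 0.24. Etv5, an ETS factor induced by ERK, was higher in every congenic rat, with 10.68, 10.53 and 10.90 against 9.41, 9.56 and 8.70, a difference of 1.48 (SE 0.27) with an adjusted p of 0.207 in limma. Spry2, a feedback inhibitor of receptor signaling to Ras, was also higher in every congenic rat, with 7.60, 7.49 and 7.76 against 6.36, 7.36 and 6.12, and its difference was 1.01 (SE 0.34). Both had the direction opposite to Dusp5 and, in S2, Spry2 came close to the congenic rats.

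The called genes of that list with lower signal were Ets1 and Egr2. Ets1, a transcription factor abundant in lymphocytes, was 5.18, 5.39 and 5.85 in congenic rats and 10.08, 5.75 and 9.19 in S rats, and its strains overlapped through S2. Egr2, an early response factor that is also induced in activated T cells, was well above background on all S arrays, at 8.60, 6.29 and 7.91, and on no congenic array, where it was at least 5.62-fold lower (adjusted p of 0.268 in limma). Without S2 the bound was 8.85-fold, and without S1 it was 3.98-fold. Without S2 the list had 4 genes called in each direction and a median of 0.47. Leaving out any other rat gave 1 to 3 called higher and 1 to 2 called lower, the methods' t-test and the first slide alone gave 1 in each direction, and no gene was called lower with the filter on all 6 arrays.

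Of 38 other phosphatases of MAP kinases and other members of the dual-specificity class, 30 had a probe, none was called in either direction and the median difference was 0.14. Without S2, 2 were called higher and 3 lower, with a median of 0.16, and leaving out any other rat gave 0 to 1 in each direction. The shares of these lists can be read against the 6.41% of all genes called with 6 rats and the 19.6% called without S2.

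**Figure D4:**
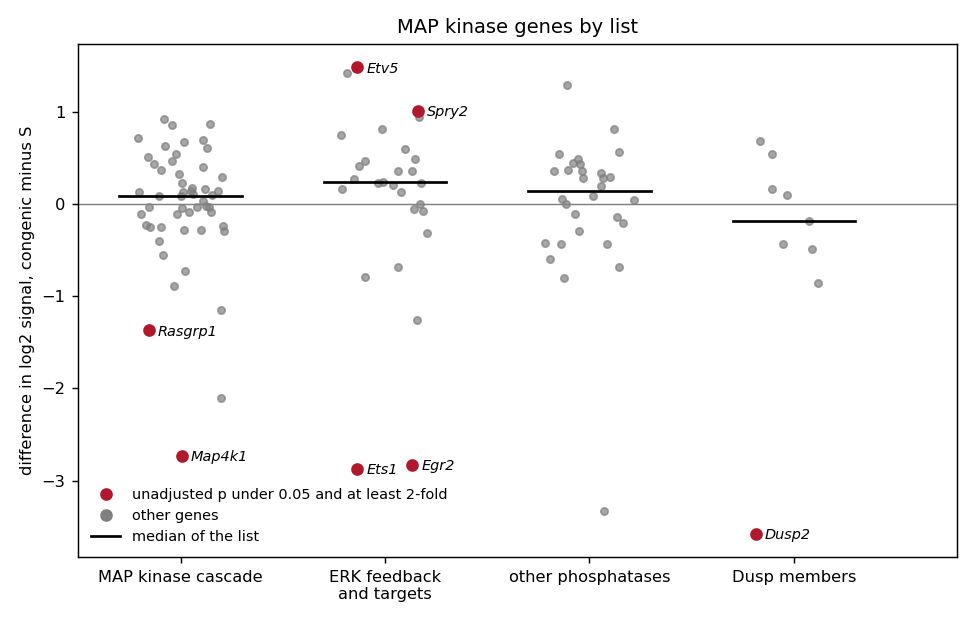
Difference in log2 signal, congenic minus S, for each gene of the MAP kinase cascade, of the ERK feedback and target list, of the other phosphatases and for the 9 measured members, with a black line at the median of each group. Red points passed an unadjusted p under 0.05 with at least a 2-fold difference, and they are Map4k1, Rasgrp1, Ets1, Egr2, Etv5, Spry2 and Dusp2, of which Egr2 and Dusp2 were not well above background in congenic rats.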

How the data were processed

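Colon mRNA of 3 S.LEW congenic and 3 S rats was hybridized to Agilent Rat 4x44K v3 arrays, 1 array per rat. The authors read the images with Feature Extraction 11.0.1.1, applied quantile normalization in GeneSpring, and retained probes that were detected on 3 or more of the 6 arrays. The deposited log2 table of 23997 probes gave the main values. The deposited scanner output holds 1 background-corrected intensity per spot, and served for detection, for spot spread and as an alternative.

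Probes were named through their accessions and the RefSeq table of GRCr8, which matched 18005 of 30367 probes. A gene with several probes was read by its brightest. The test was limma 3.58.1 (R 4.3.3), fitted with strain as the only term and moderated by eBayes, and p-values were adjusted by Benjamini-Hochberg over all probes of the table. Called means an unadjusted p under 0.05 and at least a 2-fold difference. A probe was above background on an array where most of its unflagged spots were. For a dim probe each array of the dim strain was given its own signal or, if higher, the lowest signal well above background on that array, and the bound is the fold from the mean of these values to the mean of the bright strain. The number of arrays limits the precision.

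The members and gene lists were chosen with earlier results of these data known. Named are all members, up to 3 called genes of each pathway list with the largest difference, and the 3 nearest patterns of Dusp2 and Dusp5. Spry2 was added to complete its list, and other exceptions are stated where they occur. No coordinates other than those of the RefSeq windows are given, because that assembly is not the one of the array design. The fit was tested on simulated data with known changes. Plots were drawn with matplotlib 3.10.9. Rats with a shared replicate number were not treated as pairs in the main fit, and the deviations of such pairs from the strain means are given among the limits. Alternatives were the scanner intensities with quantile or 75th percentile scaling or without a filter on dim probes, a filter on all 6 arrays, the methods' t-test, a block for replicate number or for slide, the first slide alone and leaving out each rat in turn. Normexp correction (offset 50) was run on the median signal, an alternative chosen after seeing the data. The planned version on the mean signal was not run, since the scanner files used here hold no such column.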

Additional observations from a re-analysis of the deposited data

How the results depend on the processing

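The directions of Dusp2, Dusp5, Dusp6 and Dusp8 held under every alternative run. Dusp1 turned to -0.047 with the slide as a block and within the first slide, and Dusp14 turned to -0.23 under both and to -0.0034 with normexp. Leaving out 1 rat gave differences of 0.13 to 0.84 for Dusp1, -4.73 to -2.74 for Dusp2, -0.11 to 0.68 for Dusp4, -0.90 to -0.79 for Dusp5, -0.83 to -0.29 for Dusp6, 0.45 to 1.11 for Dusp8, -0.94 to 0.060 for Dusp10, -0.29 to 0.64 for Dusp14 and -0.47 to 0.070 for Dusp16. Dusp2, Dusp5 and Dusp8 passed an adjusted p of 0.05 in limma only without S2, and the cause was not tested. The bound for Dusp2 ran from 2.59-fold without S1 to 10.3-fold without S2, and was 4.59-fold and 5.04-fold with quantile and 75th percentile scaling of the scanner intensities. Member genes called lower numbered 1, and 0 with the filter on all 6 arrays (which leaves out Dusp2 and Dusp16), the methods' t-test, the slide as a block and the first slide alone. Leaving out 1 rat gave 0 to 1 called higher (Dusp8, without S2) and 0 to 1 called lower (0 without C3).

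Over all probes 776 were called higher and 562 lower. The higher count was 359 with normexp, 515 with the methods' t-test, 443 within the first slide and 477 (without S3) to 2397 (without S2) with 1 rat left out. The lower count was 342 with the filter on all 6 arrays, 178 with the methods' t-test, 227 with the slide as a block, 187 within the first slide and 192 (without S3) to 1725 (without S2) with 1 rat left out. With 6 rats 0 probes had an adjusted p under 0.05 in limma, while 3115 had an unadjusted p under 0.05. The count was 1 with 75th percentile scaling and 0 to 5553 with 1 rat left out (41 without S1, 5553 without S2), and 0 with the methods' t-test.

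With the replicate number as a block, 794 probes were called higher and 744 lower, 1 member was called lower and 0 higher, and the adjusted p was 0.438 for Dusp5 and 0.436 for Dusp2, so no call among the members changed. The correlations of the deviations of same-numbered rats from their strain means were -0.02, -0.13 and -0.06, and C1 correlated best with S2, not with S1.

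Signal over background limits Dusp2 in congenic rats and Dusp16 in C3. Slides were inferred from scan identifiers, and slide and strain are separated by C1 alone. Each rat has 1 array, and S2 stood apart from S1 and S3.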

Other observations

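Other cell type markers also differed between rats. The mean log2 signal of 5 plasma cell markers was 7.95 to 9.08 in congenic rats, while S1 had 9.29, S2 had 8.43 and S3 had 9.79, with 1 gene called lower and none higher. The mean of 11 macrophage and myeloid markers was 8.53 to 9.11 in congenic rats and 9.68, 8.33 and 9.68 in S rats, with 2 genes called higher and 1 lower, or 7 lower without S2. The mean of 6 endothelial markers was 8.15 to 8.57 in congenic rats and 8.76, 8.46 and 8.75 in S rats, with no gene called in either direction, or 1 lower without S2. In each of these lists S2 was below S1 and S3, as it was for Dusp2, Dusp6, Dusp10 and Dusp16. Without S2, 5 of the 10 striated muscle markers were called lower and 1 higher. Among the 13 epithelial markers 3 were called higher and none lower, and among the 6 adipocyte markers 2 were called higher and none lower. Of all genes 3.79% were called higher and 2.62% lower with 6 rats, and 11.3% and 8.27% without S2. The median difference was 0.81 for epithelium, 0.86 for adipocytes, 0.95 for smooth muscle, -0.91 for striated muscle, -0.92 for plasma cells, -0.68 for myeloid cells, -0.26 for endothelium, -2.42 for T cells and -3.30 for B cells.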
